A study of Mus musculus with 40 samples.

Results

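The genes described here encode the machinery of MHC class II antigen presentation: the class II chains H2-Aa, H2-Ab1 and H2-Eb1, the invariant chain Cd74, the transactivator Ciita, and the peptide-loading subunits H2-DMa and H2-DMb1. They were chosen by name, with earlier results of these data known, and each was matched by its Ensembl identifier. This gave 7 genes of the 55359 listed in the count files. All 7 passed the filter on low counts and so stand among the 17345 genes tested. Levels are gene counts scaled to library size (CPM), and a gene was called when its Benjamini-Hochberg adjusted p over all genes tested was under 0.05 in edgeR's quasi-likelihood test.

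RNA was sequenced from the right kidneys of 40 male C57BL/6 mice (C57BL/6NCrl in the design text), in 8 groups of 5. One group received sesame oil vehicle alone, and the other 7 received 0.03, 0.1, 0.3, 1, 3, 10 or 30 µg/kg TCDD (2,3,7,8-tetrachlorodibenzo-p-dioxin), a compound that binds and activates the aryl hydrocarbon receptor, in sesame oil. Dosing was by gavage at 4-day intervals over 28 days, started at 30 days of age, and tissue was taken at 58 days of age. The libraries held 15278423 to 25575317 gene counts each, and replicate numbers only name libraries and pair none across groups.

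MHC class II molecules are heterodimers of an alpha and a beta chain that carry peptides from endocytosed protein to the cell surface, where CD4+ T cells read them. The invariant chain blocks the peptide groove until proteases such as cathepsin S cut it down to a short remnant, which the H2-DM heterodimer exchanges for antigenic peptide. Ciita drives transcription of these genes by binding a complex of RFX, NF-Y and CREB proteins on a shared promoter module of X and Y boxes. Dendritic cells, macrophages and B cells express class II constitutively, and interferon-gamma, through Irf1 among other factors, is known to induce Ciita in other cells, kidney epithelium and endothelium among them.

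The promoter module is shown because it is the known site of Ciita action on class II genes. RefSeq promoters (250 bases before to 50 after the start site, GRCm38.p6) were found for H2-Aa, H2-Eb1, H2-DMa and H2-DMb1 among the members. Capitals mark the Y box core TGATTGG, the X box AACNGATG and, in H2-Aa, the cyclic AMP response element TGACGTCA, which falls where the second part of the X box usually lies. Each stretch runs 5′ to 3′ along the gene's own strand, and H2-DMb2, the near copy of H2-DMb1, is added for comparison.
H2-Aa, chr17:34287855-34287909, minus strand: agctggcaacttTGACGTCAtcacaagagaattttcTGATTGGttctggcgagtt
H2-Eb1, chr17:34305766-34305824, plus strand: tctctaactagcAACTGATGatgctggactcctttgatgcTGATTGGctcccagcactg
H2-DMb1, chr17:34153087-34153146, plus strand: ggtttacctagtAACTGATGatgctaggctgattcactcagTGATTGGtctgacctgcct
H2-DMb2, chr17:34145116-34145175, plus strand: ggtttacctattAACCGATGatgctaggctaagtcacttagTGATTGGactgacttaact

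The Y box core began at -61 from the start site in H2-Eb1, -63 in H2-DMb1, -50 in H2-Aa and -92 in H2-DMb2, and the X box began at -89 in H2-Eb1, -92 in H2-DMb1 and -121 in H2-DMb2. Searched on both strands of 32851 RefSeq promoters of the same length, TGATTGG matched 7.82%, AACNGATG 2.32%, TGACGTCA 1.79%, and TGATTGG with AACNGATG in the same promoter 0.186%. The motifs were chosen with these promoters in view. Neither of the H2-DMa promoter entries matched any of the motifs, which says only that these letters are not in those windows, and H2-DMa had the largest log2 fold change of the members at 1 and 10 µg/kg. Among other class II genes, H2-Eb2 matched both boxes, with the Y box at -102 and the X box at -130, and H2-Oa and H2-Ob matched the Y box, at -45 and -59. H2-Ob was called by the trend and at no single dose, and H2-Oa and H2-Eb2 had too few counts to be tested.

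The 7 genes did not differ detectably from vehicle up to 0.3 µg/kg and rose together at 1 µg/kg. All 7 were called higher at 1, 3, 10 and 30 µg/kg. Log2 fold changes against vehicle ran from 1.03 (H2-Eb1) to 1.74 (H2-DMa) at 1 µg/kg and from 1.44 (H2-Eb1) to 2.14 (H2-DMa) at 10 µg/kg. Their group means were highest at 10 µg/kg for every member and lower at 30 µg/kg, where the decline from 10 µg/kg did not pass the test for any of the 7.

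**Figure D1:**
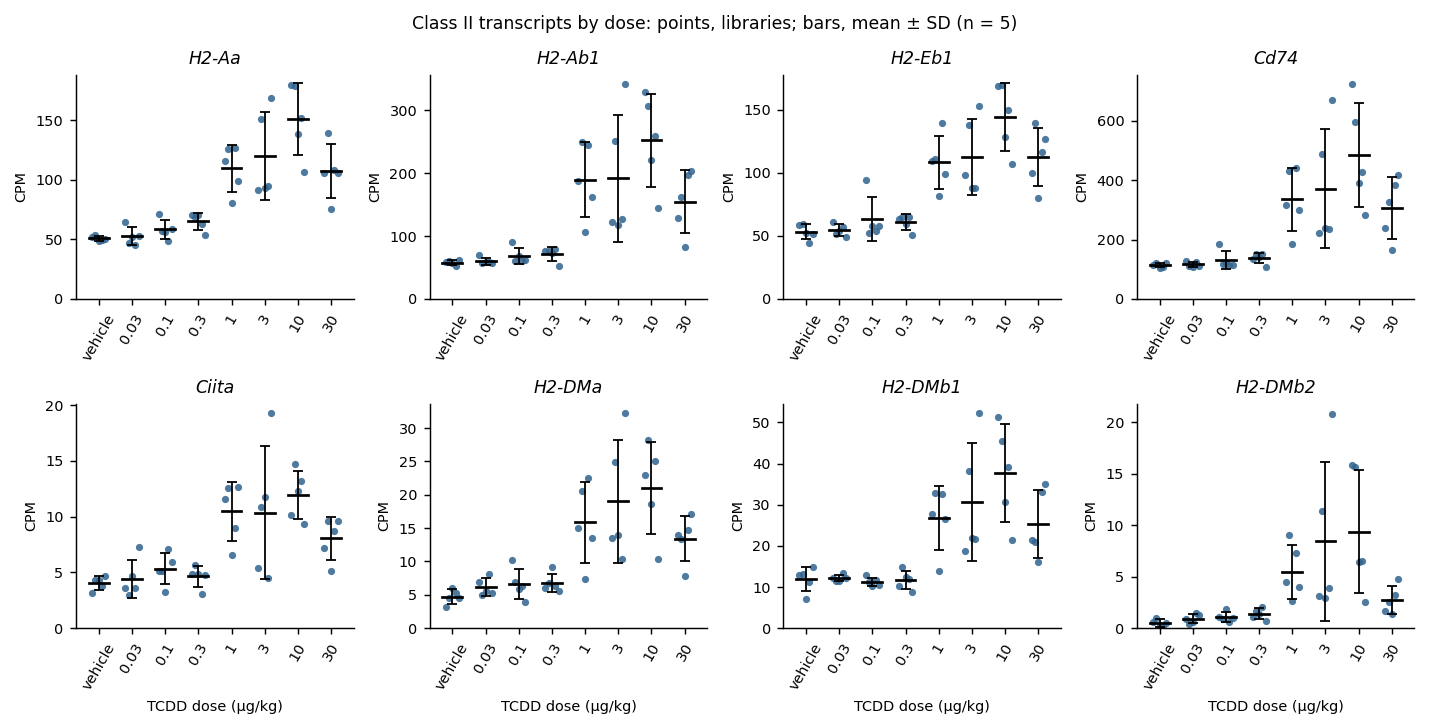
CPM (vertical axis, linear, from 0) of the 7 class II genes and of H2-DMb2 in each library, by TCDD dose in µg/kg (horizontal axis). Points are libraries, and bars give the mean ± SD of 5. Points lie close together from vehicle to 0.3 µg/kg and spread widely from 1 µg/kg upward, with H2-Ab1 running from 118 to 343 CPM among the 3 µg/kg libraries.

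Among the chains, H2-Ab1, the beta chain of the I-A molecule, stood at 58.1, 60.8, 57.9, 51.9 and 61.3 CPM in the vehicle libraries. It measured 188, 249, 106, 245 and 162 CPM at 1 µg/kg, 122, 251.5, 118, 128 and 343 CPM at 3 µg/kg, 330, 308, 222, 260 and 144 CPM at 10 µg/kg, and 128, 162, 82.2, 197 and 204 CPM at 30 µg/kg. Every library at 1 µg/kg and above was higher than every vehicle library. The means were 58.0 ± 3.76 CPM for vehicle and 252.5 ± 73.8 CPM at 10 µg/kg (SD, n = 5), and edgeR put the 10 µg/kg log2 fold change at 2.12 ± 0.27 (SE, edgeR adjusted p = 2.17e-06). Below 1 µg/kg the groups overlapped vehicle, with means of 60.1, 68.7 and 71.6 CPM at 0.03, 0.1 and 0.3 µg/kg.

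H2-Aa encodes the alpha chain that pairs with H2-Ab1. It measured 52.2, 53.5, 48.9, 49.3 and 50.2 CPM in vehicle libraries and 116, 126, 80.9, 127 and 99.0 CPM at 1 µg/kg. Its values were 91.6, 151, 93.4, 95.1 and 169 CPM at 3 µg/kg, 180, 179, 139, 152 and 107 CPM at 10 µg/kg, and 106, 140, 75.9, 109 and 106 CPM at 30 µg/kg. No library from 1 µg/kg upward overlapped vehicle, and the log2 fold change was 1.11 ± 0.17 at 1 µg/kg (SE, edgeR adjusted p = 0.000192) and 1.57 ± 0.17 at 10 µg/kg (SE, edgeR adjusted p = 5.68e-08). At 0.3 µg/kg all 5 libraries, at 54.1 to 70.8 CPM, were also above the highest vehicle library. That difference, 0.36 ± 0.17 on the log2 scale, had an unadjusted p of 0.0375 and an edgeR adjusted p of 0.920, so it was not called.

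H2-Eb1 encodes the beta chain of the I-E molecule. It measured 58.4, 59.0, 51.9, 44.4 and 51.8 CPM in vehicle libraries and 110, 111, 81.2, 140 and 98.8 CPM at 1 µg/kg. It reached 168, 169, 128, 150 and 107 CPM at 10 µg/kg, again with no overlap, and stood at 100, 139, 79.7, 116 and 127 CPM at 30 µg/kg. Its log2 fold change was 1.03 ± 0.17 at 1 µg/kg (SE, edgeR adjusted p = 0.000712) and 1.44 ± 0.17 at 10 µg/kg (SE, edgeR adjusted p = 5.15e-07). Its partner H2-Ea, named H2-Ea-ps in the annotation and known to be inactive in C57BL/6 mice, had 0 counts in all 40 libraries.

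Cd74, the invariant chain, was the most abundant member. It measured 116, 120, 106, 109 and 120 CPM in vehicle libraries, 317, 433, 185, 441 and 301 CPM at 1 µg/kg, and 222, 489, 237, 236 and 670 CPM at 3 µg/kg. Values were 725, 598, 391, 428 and 282 CPM at 10 µg/kg and 240, 326, 165, 383 and 419 CPM at 30 µg/kg. All libraries from 1 µg/kg upward exceeded all vehicle libraries. The mean went up from 114 ± 6.66 CPM under vehicle to 485 ± 176 CPM at 10 µg/kg (SD, n = 5), a log2 fold change of 2.09 ± 0.29 (SE, edgeR adjusted p = 5.84e-06).

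Ciita, the transactivator that the other members depend on for transcription, was the member with the lowest level for its length. It measured 3.11, 4.31, 4.36, 3.81 and 4.70 CPM in vehicle libraries, 11.6, 12.6, 6.52, 8.96 and 12.7 CPM at 1 µg/kg, and 5.43, 10.9, 11.7, 4.49 and 19.3 CPM at 3 µg/kg. At 10 µg/kg it stood at 10.2, 14.7, 12.3, 13.2 and 9.38 CPM, and at 30 µg/kg at 7.16, 9.61, 5.15, 8.76 and 9.63 CPM. The groups did not overlap vehicle at 1, 10 and 30 µg/kg, whereas at 3 µg/kg replicate 4 lay within the vehicle range. Its log2 fold change was 1.36 ± 0.28 at 1 µg/kg (SE, edgeR adjusted p = 0.00495), 1.55 ± 0.27 at 10 µg/kg (SE, edgeR adjusted p = 0.000142) and 0.99 ± 0.28 at 30 µg/kg (SE, edgeR adjusted p = 0.00956). Dexi, a gene on the opposite strand, shares 3.45% of the exonic bases of Ciita, and the counts used here do not tell the strands apart.

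H2-DMa and H2-DMb1 form the heterodimer that exchanges the invariant chain remnant for peptide. H2-DMa measured 3.23, 4.46, 6.09, 5.33 and 4.59 CPM in vehicle libraries, 15.1, 20.6, 7.39, 22.6 and 13.6 CPM at 1 µg/kg, 22.9, 28.1, 18.6, 25.1 and 10.3 CPM at 10 µg/kg, and 14.0, 13.4, 7.87, 14.7 and 17.1 CPM at 30 µg/kg. None of these dosed libraries overlapped vehicle, and edgeR put the 10 µg/kg log2 fold change at 2.14 ± 0.31 (SE, edgeR adjusted p = 8.9e-06). Brd2 on the opposite strand shares 10.44% of the exonic bases of H2-DMa, and reads in that stretch cannot be told apart.

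H2-DMb1 measured 13.0, 13.2, 7.13, 11.3 and 15.0 CPM in vehicle libraries and 27.7, 33.0, 14.0, 32.7 and 26.5 CPM at 1 µg/kg, where replicate 3 lay inside the vehicle range. It measured 51.3, 45.5, 30.6, 39.3 and 21.3 CPM at 10 µg/kg and 21.4, 21.0, 16.1, 33.2 and 35.1 CPM at 30 µg/kg, with no overlap at either dose. Its log2 fold change was 1.17 ± 0.27 at 1 µg/kg (SE, edgeR adjusted p = 0.0266) and 1.66 ± 0.27 at 10 µg/kg (SE, edgeR adjusted p = 6.04e-05). The call at 1 µg/kg was lost in 7 of the 10 fits that left out 1 library of the contrast, namely those without vehicle replicates 2, 3 or 4 and without 1 µg/kg replicates 1, 2, 4 or 5, and with the 2 groups alone in the fit.

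H2-DMb2, the neighbouring copy of H2-DMb1 and not a member, had a larger fold change on a far lower level. It measured 0.576, 1.01, 0.302, 0 and 0.510 CPM in vehicle libraries, 4.47, 9.04, 2.63, 7.26 and 3.98 CPM at 1 µg/kg, 15.8, 15.6, 6.4, 6.55 and 2.50 CPM at 10 µg/kg, and 1.70, 2.54, 1.36, 3.2 and 4.78 CPM at 30 µg/kg. No library at these doses overlapped vehicle, and the log2 fold change was 3.47 ± 0.63 at 1 µg/kg (SE, edgeR adjusted p = 0.00203) and 4.24 ± 0.63 at 10 µg/kg (SE, edgeR adjusted p = 1.71e-05). Of the 50-base words of the H2-DMb1 transcripts, 22.7% also occur in H2-DMb2, so reads could be lost to, or divided between, the copies. With the counts of both copies summed into 1 gene, an alternative chosen after seeing the data, all 7 members were again called at 1, 3, 10 and 30 µg/kg.

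**Figure D2:**
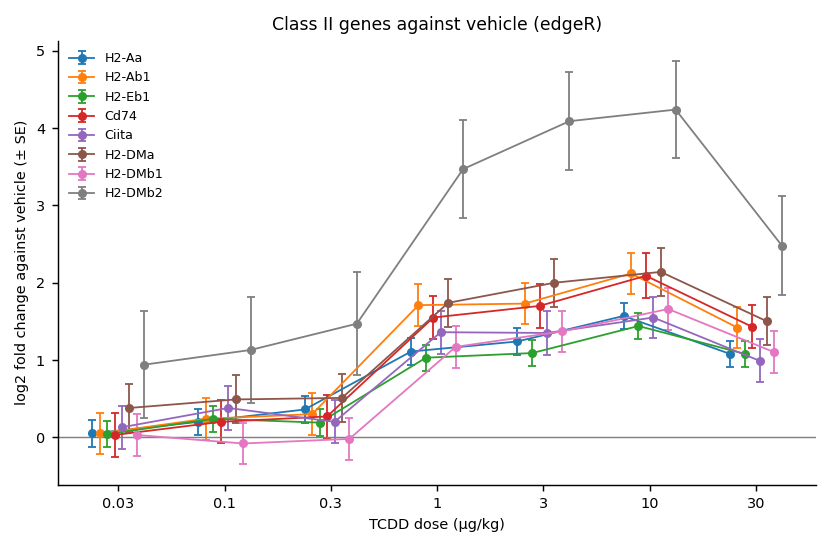
Log2 fold change against vehicle (vertical axis) from edgeR's fit at each TCDD dose in µg/kg (horizontal axis, doses evenly spaced). Bars are ± 1 SE, and genes are offset sideways for legibility. The 7 members lie between 0.99 and 2.14 from 1 µg/kg upward and H2-DMb2 lies between 2.48 and 4.24, and all curves have their highest value at 10 µg/kg.

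Counted against the background, 0 of 7 members were called at 0.03 µg/kg, where 0% of all genes were called, and 0 of 7 at 0.1 µg/kg, where the background was also 0%. At 0.3 µg/kg 0 of 7 members were called against 0.00577% of all genes, the single gene being Cyp1a1. By edgeR, 0, 0 and 1 member had an unadjusted p under 0.05 at 0.03, 0.1 and 0.3 µg/kg, the 1 member being H2-Aa, and DESeq2 called 0 at each of these doses.

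At 1 µg/kg 7 of 7 members were called higher against 0.507% of all genes, with a median log2 fold change of 1.36 beside 0.006 over all genes tested. At 3 µg/kg it was 7 of 7 against 1.03%, with medians of 1.37 and 0.001. At 10 µg/kg it was 7 of 7 against 3.82%, with medians of 1.66 and -0.005, and at 30 µg/kg 7 of 7 against 8.39%, with medians of 1.10 and 0.011. All these comparisons use the same 5 vehicle libraries, and the members, unlike the background, were chosen with earlier results of these data known. The class II genes were therefore among the 88 genes called higher at the lowest dose at which more than 1 gene was called.

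In the order of log2 fold change at 1 µg/kg among the 17345 genes tested, H2-DMa ranked 90, H2-Ab1 92, Cd74 142, Ciita 208, H2-DMb1 313, H2-Aa 357 and H2-Eb1 435. At 30 µg/kg the same genes ranked 363, 426, 417, 956, 745, 784 and 779. For scale, Cyp1a1, the classical target of the receptor that TCDD binds, had mean levels of 2.37 CPM in vehicle, 24.7 CPM at 0.3 µg/kg, 99.4 CPM at 1 µg/kg, 1569 CPM at 10 µg/kg and 2537 CPM at 30 µg/kg. Cyp1a1 rose further from 10 to 30 µg/kg (log2 fold change 0.69 ± 0.20, edgeR adjusted p = 0.0492), whereas every member had a negative value there.

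Between neighbouring doses, the step from 0.3 to 1 µg/kg was the 1 step at which members were called. H2-Ab1 (log2 difference 1.41 ± 0.27, edgeR adjusted p = 0.0107), H2-Eb1, Cd74, H2-Aa and H2-DMb1 passed, 5 of 7 against 0.213% of all genes, while Ciita (1.17 ± 0.27, edgeR adjusted p = 0.0510) and H2-DMa (1.23 ± 0.30, edgeR adjusted p = 0.0842) did not. DESeq2 called 7 of 7 at this step. The edgeR count rested on few libraries. Without replicate 3 at 1 µg/kg 7 members were called, without replicate 4 at 1 µg/kg or replicate 5 at 0.3 µg/kg 0 were called, and each of the other 7 fits without 1 library called 1 or 2.

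From 0.03 to 0.1 and from 0.1 to 0.3 µg/kg 0 of 7 members were called, against 0% and 0.00577% of all genes, and edgeR gave no member an unadjusted p under 0.05. From 1 to 3 µg/kg 0 of 7 were called against 0.0115%, and from 3 to 10 µg/kg 0 of 7 against 0.11%, with 2 members under an unadjusted p of 0.05 at the latter step. DESeq2 also called 0 at these 4 steps.

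From 10 to 30 µg/kg all 7 members had lower values, by log2 differences from -0.36 ± 0.17 for H2-Eb1 to -0.70 ± 0.26 for H2-Ab1, and 0 of 7 were called lower by edgeR against 1.52% of all genes. All 7 had an unadjusted p under 0.05, their edgeR adjusted p-values ran from 0.105 to 0.306, and DESeq2 called 1, H2-Aa. Without replicate 2 at 30 µg/kg or replicate 5 at 10 µg/kg, edgeR also called H2-Aa.

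Over the whole series, the trend on the dose rank (0 for vehicle to 7 for 30 µg/kg) was positive for all 7 members, called higher against 11% of all genes. The slope per step ran from 0.22 ± 0.02 for H2-Eb1 (SE, edgeR adjusted p = 6.73e-09) and 0.22 ± 0.04 for Ciita (adjusted p = 1.93e-05) to 0.33 ± 0.04 for H2-Ab1 (adjusted p = 1.82e-07). A straight slope does not describe group means that were lower at 30 than at 10 µg/kg. That decline was called by edgeR for 0 of 7 members, and the group values above carry the shape.

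Levels were compared between genes per kilobase of exonic length, taken over all annotated exons of a gene. That length need not be the length of the transcripts present, and the order depends on it. Before division, vehicle means of H2-Aa, H2-Eb1 and H2-Ab1 were 50.8, 53.1 and 58.0 CPM, with lengths of 3798, 1944 and 2568 bases. In vehicle kidneys Cd74 stood highest at 68.0 ± 3.97 CPM per kb, followed by H2-Eb1 at 27.3 ± 3.07, H2-Ab1 at 22.6 ± 1.46, H2-Aa at 13.4 ± 0.520, H2-DMb1 at 7.10 ± 1.77, H2-DMa at 1.37 ± 0.310 and Ciita at 0.426 ± 0.0648 CPM per kb (SD, n = 5). Only H2-Eb1 and H2-Ab1 overlapped as neighbours in this order, with ranges of 22.8 to 30.4 and 20.2 to 23.9 CPM per kb. At 10 µg/kg Cd74 stood at 289 ± 105 CPM per kb, H2-Ab1 at 98.3 ± 28.8, H2-Eb1 at 74.3 ± 13.9, H2-Aa at 39.8 ± 8.04, H2-DMb1 at 22.4 ± 7.09, H2-DMa at 6.09 ± 2.01 and Ciita at 1.25 ± 0.228. H2-Ab1 and H2-Eb1 still overlapped, and so did H2-Aa, at 28.1 to 47.4, and H2-DMb1, at 12.7 to 30.5 CPM per kb.

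The members did not rise by equal factors. The H2-Ab1 to H2-Aa ratio within a library, which compares the chains of one heterodimer, was 1.14 ± 0.0648 in vehicle (1.05 to 1.22) and 1.70 ± 0.268 at 1 µg/kg (1.31 to 1.98), 1.53 ± 0.322 at 3 µg/kg (1.26 to 2.03) and 1.64 ± 0.183 at 10 µg/kg (1.35 to 1.83; SD, n = 5). All 5 libraries at each of these doses exceeded all vehicle libraries, and the two-sided exact permutation p was 0.00794 each time, the smallest that 5 against 5 allows (adjusted p = 0.0333 over 21 ratio tests). At 30 µg/kg the ratio was 1.44 ± 0.397, with 2 of 5 libraries above vehicle (exact permutation p = 0.190, adjusted p = 0.298).

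The ratio of Cd74 to H2-Aa behaved alike, at 2.24 ± 0.0875 in vehicle, 2.99 ± 0.498 at 1 µg/kg, 2.93 ± 0.667 at 3 µg/kg, 3.13 ± 0.566 at 10 µg/kg and 2.85 ± 0.824 at 30 µg/kg (SD, n = 5). It passed at 3 and 10 µg/kg (exact permutation p = 0.00794, adjusted p = 0.0333) and not at 1 µg/kg (exact permutation p = 0.0159, adjusted p = 0.0556) or 30 µg/kg (exact permutation adjusted p = 0.298). The ratio of the H2-DM subunits, H2-DMb1 to H2-DMa, was 2.71 ± 1.10 in vehicle with a range of 1.17 to 4.04, and passed at no dose (lowest exact permutation p = 0.0952, adjusted p = 0.286, at 3 µg/kg). These ratios were picked after the levels had been seen.

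**Figure D3:**
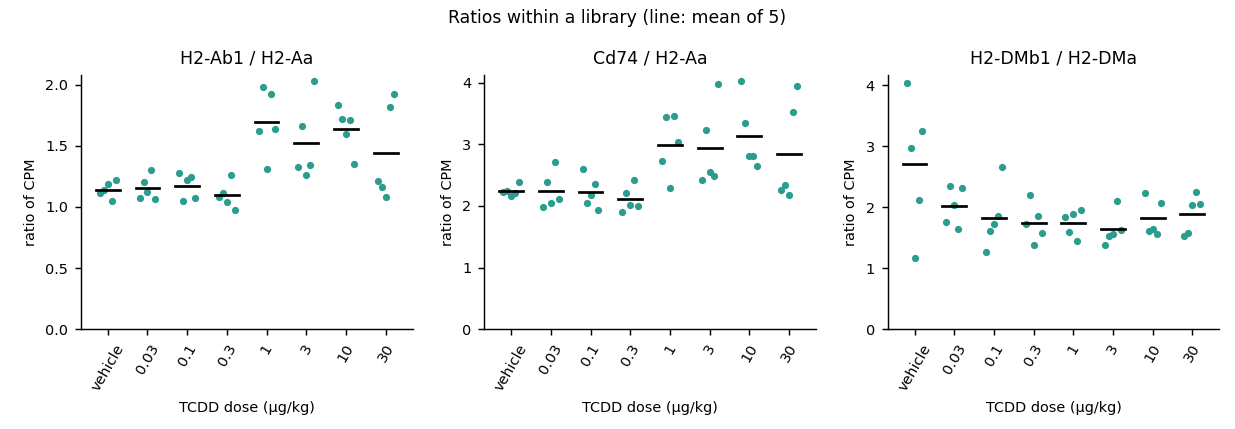
Ratio of CPM values within each library (vertical axes, linear, from 0) for H2-Ab1 to H2-Aa, Cd74 to H2-Aa and H2-DMb1 to H2-DMa, by TCDD dose in µg/kg (horizontal axis). Points are libraries and lines are means of 5. The first ratio moves from about 1.14 in vehicle to 1.70 at 1 µg/kg, and at 30 µg/kg its libraries separate into a high pair and a lower remainder.

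Within dose groups the members moved library by library. Replicate 3 was the lowest library for 7 of 7 members at 1 µg/kg, replicate 5 the highest for 7 of 7 at 3 µg/kg, replicate 5 the lowest for 7 of 7 at 10 µg/kg, and replicate 3 the lowest for 7 of 7 at 30 µg/kg. At 0.1 µg/kg replicate 1 was the highest for 6 of 7. Over the 40 libraries the Pearson correlation of log2 CPM ran from 0.816 (H2-Eb1 with Ciita) to 0.995 over the 21 pairs of members, with a median of 0.934. After subtraction of group means it ran from 0.373 to 0.980, with a median of 0.753. These correlations are descriptive, and the points share library size and the normalization.

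The summed level of the 7 members shows the same libraries. It was 275 to 316 CPM under vehicle, 481 to 1020 CPM at 1 µg/kg, 571 to 1440 CPM at 3 µg/kg, 680 to 1490 CPM at 10 µg/kg and 432 to 917 CPM at 30 µg/kg. At 3 µg/kg replicates 2 and 5 stood at 1100 and 1440 CPM, while replicates 1, 3 and 4 stood at 571, 584 and 584 CPM, so the mean at that dose describes no single library well. With only the libraries of vehicle and 3 µg/kg in the fit, 3 of 7 members were called there, H2-Aa, H2-Eb1 and H2-DMa. The adjusted p-values of the other members were then 0.0758 for H2-Ab1, 0.0901 for Cd74, 0.142 for Ciita and 0.158 for H2-DMb1.

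The genes most like the members were those of MHC class I and interferon-induced GTPases. Ranked by Pearson correlation over the 40 libraries with the mean standardized log2 CPM of the members, the 8 leading genes were B2m (0.973), H2-K1 (0.965), H2-D1 (0.963), H2-Q4 (0.957), Tap1 (0.953), Ifi47 (0.951), Igtp (0.948) and Irgm1 (0.948). After subtraction of group means the correlations were 0.915, 0.863, 0.863, 0.804, 0.877, 0.750, 0.859 and 0.809. B2m is the light chain of class I molecules, H2-K1 and H2-D1 are classical class I heavy chains, H2-Q4 is a class I gene, and Tap1 is a subunit of the peptide transporter that loads class I. Heavy chain genes of class I are near-identical in sequence, and reads mapping to several places were not counted for any gene in the deposited files, so their levels are uncertain.

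B2m stood at 214 ± 24.8 CPM in vehicle, 412 ± 90.3 CPM at 1 µg/kg, 594 ± 139 CPM at 10 µg/kg and 446 ± 96.1 CPM at 30 µg/kg (SD, n = 5), with a log2 fold change of 1.47 ± 0.18 at 10 µg/kg (SE, edgeR adjusted p = 1.23e-06). Igtp, a GTPase induced by interferon-gamma, stood at 12.3 ± 2.13 CPM in vehicle, 56.4 ± 20.7 CPM at 1 µg/kg, 54.0 ± 16.5 CPM at 10 µg/kg and 29.6 ± 7.73 CPM at 30 µg/kg. Its log2 fold change was 2.21 ± 0.33 at 1 µg/kg (SE, edgeR adjusted p = 0.000162). All 8 genes were called higher at 1, 10 and 30 µg/kg. They were picked for following the members over these same libraries, so their calls and adjusted p-values largely follow from that choice. Cyp1a1 correlated with the members at 0.824 over the libraries and at 0.097 after subtraction of group means.

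The regulators upstream of Ciita were described from a list of interferon-gamma signalling genes. Of the 8 tested, 3 were called higher at 1 µg/kg, against 0.507% of all genes, and 4 at 30 µg/kg, against 8.39%. Not all of them are named here. Irf1, a factor that acts on the Ciita promoter, went up from a vehicle mean of 12.1 ± 1.27 CPM to 28.4 ± 6.30 CPM at 1 µg/kg (SD, n = 5 each), with a log2 fold change of 1.23 ± 0.18 (SE, edgeR adjusted p = 3.52e-05). Irf8, a factor of myeloid cells, had a log2 fold change of 0.67 ± 0.13 at 1 µg/kg (SE, edgeR adjusted p = 0.00391). Both were also called higher at 30 µg/kg, as was Ifngr1, a chain of the interferon-gamma receptor (0.61 ± 0.09, edgeR adjusted p = 3.48e-06). Socs1, the feedback inhibitor of the pathway, was called by the trend alone (slope 0.20 ± 0.05, edgeR adjusted p = 0.00138). Ifng itself had at most 7 counts in any library and 27 in all 40, and was not tested.

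No DNA-bound partner of Ciita was called higher. Of Rfx5, Rfxank, Rfxap, Nfya, Nfyb, Nfyc and Creb1, edgeR and DESeq2 each called 0 of 7 at 1, 3 and 10 µg/kg, and edgeR gave 0 an unadjusted p under 0.05 there. At 30 µg/kg 1 of 7 was called, Nfya, a subunit of NF-Y, which fell by 0.31 ± 0.10 on the log2 scale (SE, edgeR adjusted p = 0.0267), where 7.55% of all genes were called lower. The median log2 fold change of the list was 0.03 at 1 µg/kg and -0.04 at 30 µg/kg. A p that misses the threshold does not show that levels were equal.

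Among 12 genes of class II processing and turnover, Ctss, which encodes cathepsin S, was the 1 gene called at 1 µg/kg. It went up from 7.92 ± 1.48 CPM under vehicle to 16.1 ± 2.49 CPM at 1 µg/kg and 25.8 ± 4.40 CPM at 10 µg/kg, and stood at 19.6 ± 2.33 CPM at 30 µg/kg (SD, n = 5), where its log2 fold change was 1.30 ± 0.18 (SE, edgeR adjusted p = 5.65e-07). Lgmn, a lysosomal asparagine endopeptidase, was called higher at 30 µg/kg alone among the doses (0.29 ± 0.09, edgeR adjusted p = 0.0254), giving 2 of 12 called at that dose, both higher, against 8.39% of all genes called higher. By the trend, March1, the ubiquitin ligase that removes class II from the cell surface, was called higher (slope 0.07 ± 0.02, edgeR adjusted p = 0.0263) and Ctsh, cathepsin H, lower (slope -0.03 ± 0.01, edgeR adjusted p = 0.0115), against 8.84% of all genes called lower by the trend.

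Other class II genes were scarce. H2-Ob, the beta chain of the H2-DM inhibitor H2-O, stood at 1.38 ± 0.370 CPM under vehicle and 1.76 ± 0.537 CPM at 30 µg/kg (SD, n = 5), was called at no dose and was called higher by the trend (slope 0.12 ± 0.04, edgeR adjusted p = 0.0188). H2-Oa, its partner, and H2-Eb2 had at most 12 and 17 counts in any library and were not tested.

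Of 8 tested partners on T cells and costimulatory genes, 0 were called at 1 µg/kg by edgeR or DESeq2, with 3 under an unadjusted p of 0.05 in edgeR, and 2 were called higher at 30 µg/kg, against 8.39% of all genes. Cd44, an adhesion receptor that forms a signalling complex with surface Cd74, went up from 1.84 ± 1.24 CPM under vehicle to 11.8 ± 2.01 CPM at 30 µg/kg (SD, n = 5; log2 fold change 2.7 ± 0.26, edgeR adjusted p = 2.87e-10). Cd86, a costimulatory ligand on antigen-presenting cells, rose by 1.19 ± 0.32 on the log2 scale at 30 µg/kg (SE, edgeR adjusted p = 0.00748). Cd4, the co-receptor that binds class II, was called by the trend alone (slope 0.17 ± 0.05, edgeR adjusted p = 0.0159).

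**Figure D4:**
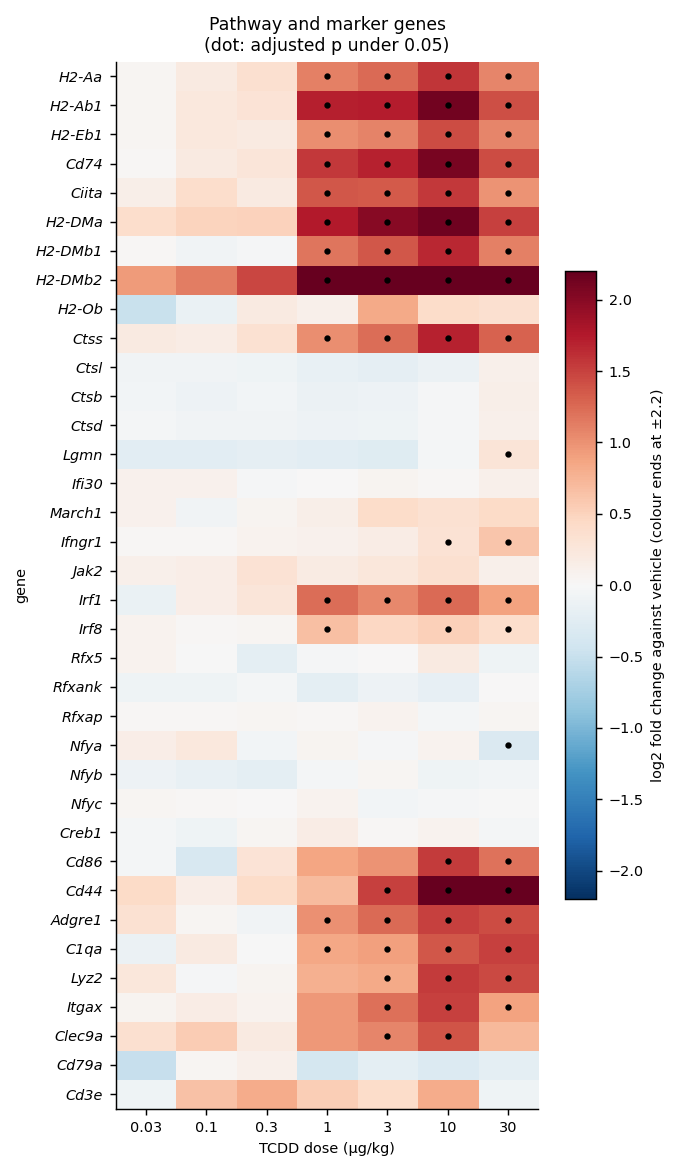
Log2 fold change against vehicle by TCDD dose in µg/kg (columns) for the members, H2-DMb2, pathway genes and selected cell markers (rows). Colour runs from blue (lower) to red (higher) and ends at ± 2.2, and a dot marks an edgeR adjusted p under 0.05. Red rows with dots from 1 µg/kg include the members, Ctss and Irf1, while the Rfx and Nfy rows stay near white.

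In whole kidney, more cells of a type and more RNA per cell cannot be told apart. Markers of the professional antigen-presenting cells were therefore set beside the members. The summed level of 13 macrophage markers was 147 to 213 CPM under vehicle, 219 to 299 CPM at 1 µg/kg, 281 to 323 CPM at 10 µg/kg and 267 to 324 CPM at 30 µg/kg, without overlap with vehicle at these doses. Of the 13, 2 were called higher at 1 µg/kg, against 0.507% of all genes. These were Adgre1 (log2 fold change 1.00 ± 0.21, edgeR adjusted p = 0.00746) and C1qa (0.85 ± 0.16, edgeR adjusted p = 0.00182). In edgeR 9 of the 13 had an unadjusted p under 0.05 at this dose, beside 1231 of all 17345 genes tested. Of the 13 log2 fold changes 12 were positive and 1 negative, and DESeq2 called 5 markers. At 30 µg/kg 11 were called higher, against 8.39% of all genes. C1qb, C1qc, Lyz2 and Ms4a7 were among these 11, with log2 fold changes of 1.35 ± 0.15, 1.29 ± 0.17, 1.45 ± 0.21 and 1.69 ± 0.39.

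The summed level of 11 dendritic cell markers was 18.5 to 22.5 CPM under vehicle, 23.1 to 31.5 CPM at 1 µg/kg, 32.6 to 38.8 CPM at 10 µg/kg and 26.7 to 33.7 CPM at 30 µg/kg. Of these, 0 were called at 1 µg/kg by edgeR or DESeq2, with 3 under an unadjusted p of 0.05 in edgeR. At 10 µg/kg 4 were called, against 3.82% of all genes called higher, and all 11 log2 fold changes were positive. At 30 µg/kg 3 were called, against 8.39% of all genes called higher and 7.55% called lower. There 7 of the 11 log2 fold changes were positive and 4 negative. Itgax, the CD11c integrin chain, had log2 fold changes of 1.51 ± 0.27 at 10 µg/kg (SE, edgeR adjusted p = 0.000109) and 0.88 ± 0.27 at 30 µg/kg (SE, edgeR adjusted p = 0.0197). Ccl22 and Irf4 were the others at 30 µg/kg, and Clec9a, Zbtb46 and Ccr7 were called by the trend. For the 9 tested B cell markers 0 were called at any dose or by the trend by edgeR or DESeq2, with 1 under an unadjusted p of 0.05 at 30 µg/kg in edgeR, and their sum overlapped vehicle at every dose. For the 7 T cell markers 0 were called at any dose, by edgeR or DESeq2, with 1 under an unadjusted p of 0.05 in edgeR at 0.03, 0.3 and 30 µg/kg each, and Lck was called higher by the trend (slope 0.14 ± 0.04, edgeR adjusted p = 0.0194).

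All 4 pan-leukocyte markers were called higher at 3, 10 and 30 µg/kg, against 1.03%, 3.82% and 8.39% of all genes. Lcp1 was the 1 called at 1 µg/kg (0.40 ± 0.08, edgeR adjusted p = 0.00556), against 0.507% of all genes. All 4 had a positive log2 fold change and an unadjusted p under 0.05 in edgeR at that dose. Endothelial markers were called higher for 0 of 8 at 1 µg/kg by edgeR or DESeq2 (2 under an unadjusted p of 0.05 in edgeR). At 10 µg/kg 6 of 8 were called higher, against 3.82% of all genes, and at 30 µg/kg 5 of 8, against 8.39%. Emcn stood at 0.74 ± 0.08 and Plvap at 0.41 ± 0.08 at 30 µg/kg. No defining marker of macrophages or dendritic cells was at 0 throughout.

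The summed members had larger ratios to vehicle than these marker sums, but gene by gene the order depended on the dose. The ratio of mean summed levels, dose over vehicle, was 2.68 for the members at 1 µg/kg, beside 1.34 for macrophage, 1.36 for dendritic cell and 1.40 for pan-leukocyte markers. At 10 µg/kg the ratios were 3.72, 1.65, 1.73 and 1.82, and at 30 µg/kg 2.45, 1.57, 1.43 and 1.71. A sum is carried by its most abundant genes. The median log2 fold change of the 13 macrophage markers was 0.69 at 1 µg/kg, 1.21 at 10 µg/kg and 1.35 at 30 µg/kg, beside 1.36, 1.66 and 1.10 for the members, so at 30 µg/kg the macrophage median was the higher. Single macrophage markers at 30 µg/kg ran from -0.13 to 2.23 and the members from 0.99 to 1.5. Within libraries, the summed members stood at 1.29 to 2.14 times the summed macrophage markers in vehicle, 2.2 to 3.97 times at 1 µg/kg, 2.34 to 5.2 times at 3 µg/kg, 2.42 to 5.12 times at 10 µg/kg and 1.61 to 3.02 times at 30 µg/kg, where replicate 3 lay inside the vehicle range.

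Some libraries at the extremes of the members were also at the extremes of the macrophage sum, and others were not. Replicate 3 at 1 µg/kg had the lowest macrophage sum of its group (219 CPM), replicate 5 at 3 µg/kg the highest (277 CPM) and replicate 5 at 10 µg/kg the lowest (281 CPM). Replicate 3 at 30 µg/kg stood at 268 CPM, just above the 267 CPM of replicate 1. Against this, replicate 5 at 0.3 µg/kg had the lowest member sum of its group (285 CPM) and the highest macrophage sum (207 CPM, level with replicate 3), and replicate 1 at 10 µg/kg had the highest member sum (1490 CPM) and the next to lowest macrophage sum (290.4 CPM). After subtraction of group means the correlation with the members over 40 libraries was 0.410 for Adgre1 and 0.425 for C1qa. Over the 13 macrophage markers it ran from -0.160 for Mertk to 0.516 for Cx3cr1. The higher value of B2m given above is no yardstick here, since B2m was picked for its correlation with the members. The part of these cell markers in the class II difference was not tested.

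**Figure D5:**
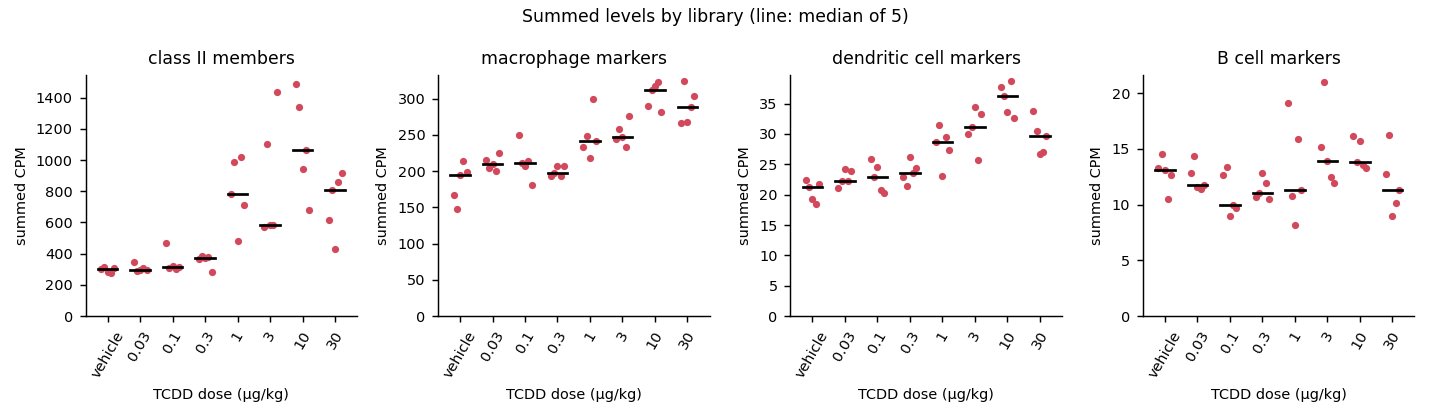
Summed CPM (vertical axes, linear, from 0) of the 7 members and of macrophage, dendritic cell and B cell markers in each library, by TCDD dose in µg/kg (horizontal axis). Points are libraries and lines are medians of 5. The median of the members goes from 304 CPM under vehicle to 785 CPM at 1 µg/kg and 1070 CPM at 10 µg/kg, that of macrophage markers from 195 to 241 and 312 CPM, and the B cell sums overlap vehicle at every dose.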

How the data were processed

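Read counts per gene for 40 kidney libraries were deposited by the authors as 1 file a library in STAR's format. FastQC 0.11.7, Trimmomatic 0.39, STAR 2.7.3a and DESeq2 are named in the submitters' processing notes, which also name both GRCm39 and mm10, so no coordinates come from the count files. The unstranded counts deposited by the authors were used, since the stranded columns held nearly equal shares (50.4 to 51.0%). Identifiers were named with GENCODE M21 (52083 of 55359). Lines naming no gene (1.41 to 2.66% unmapped, 6.98 to 9.70% multimapping, 5.28 to 7.27% in no feature, 5.41 to 5.98% ambiguous) were left out.

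In R 4.3.3, edgeR 4.0.16 (filterByExpr, TMM factors of 0.966 to 1.09, robust quasi-likelihood F-test) was fitted to all 40 libraries. Each dose was set against vehicle and against the next lower dose, and a trend on the dose rank was fitted. SE was taken as the absolute log2 fold change over the square root of F. DESeq2 1.42.0, RLE factors, no filter, 2 groups alone and leaving out each library were alternatives, and scripts were tested on simulated data. No 2 replicates agreed within sampling noise (chi-square per degree of freedom 6.90 to 78.8 over 80 pairs). The labels give no batch. The labels' design text gives 5 mice per dose.

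The genes named are all members, the 8 genes most like the members, and Cyp1a1. Named as well are up to 6 genes a list called at 30 µg/kg or by the trend, and list genes at or under 3 counts throughout. Values of single members are not printed at every dose. The members and lists were chosen with earlier results of these data known. Some genes the rule would name are not reported here.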

Additional observations from a re-analysis of the deposited data

Results flagged for a closer look

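Of 72 groups of 5 libraries checked, 10 had 1 library set apart from the other 4, where chance gives about 5% for independent checks. The checks were not independent, since the members were measured in the same libraries and moved together, so the 2 figures are not comparable. Replicate 1 at 0.1 µg/kg was high for H2-Ab1 (91.3 CPM), H2-Eb1 (93.9 CPM) and Cd74 (186 CPM), and its macrophage marker sum of 250 CPM was also the highest of its group. H2-Ab1 was also high in replicate 1 at 0.03 µg/kg (69.7 CPM) and low in replicate 5 at 0.3 µg/kg (52.5 CPM), whose macrophage sum of 207 CPM was the highest of its group. Cyp1a1 was high in replicate 4 at 0.03 µg/kg (4.02 CPM) and low in replicate 1 at 10 µg/kg (1310 CPM). Total gene counts were set apart in replicate 2 at 0.1 µg/kg (22700000), in replicate 1 at 1 µg/kg (20300000) and, at 30 µg/kg, in replicate 5 (24000000).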

How the results depend on the processing

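The 7 members were called higher at 10 and 30 µg/kg and by the trend under every alternative run, leaving out each library included, and no member's called value reversed. At 1 µg/kg 6 to 7 were called when 1 library was left out. At 3 µg/kg 3 of 7 were called with the 2 groups alone in the fit. From 0.3 to 1 µg/kg, where 5 were called, the count was 7 by DESeq2, 2 with no filter on low counts and 0 to 7 when 1 library was left out. From 10 to 30 µg/kg 1 member was called lower by DESeq2, and 0 to 1 when 1 library was left out. Of the 13 macrophage markers 2 were called higher at 1 µg/kg by edgeR and 5 by DESeq2. The cause was not tested. No paired analysis was possible because the labels give no replicate numbers. Depth limits what can be said of Ifng, H2-Oa and H2-Eb2, and reads carry no molecular identifiers. The SEs from edgeR cover the spread among libraries within groups as well as counting error.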
